A study of Mus musculus with 24 samples.

Results

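The response of the wild-type (WT) dorsal hippocampus to Morris water maze (MWM) training was read from 6 of the 24 libraries in the series, the 3 WT MWM and the 3 WT homecage libraries of RNA-Seq 1, chosen by their labels. The labels give male C57BL/6j mice. The WT animals were littermates of CBP KIX/KIX mice, which carry a mutation in the KIX domain of the coactivator CBP, and themselves carried no mutant allele. MWM mice had learned over consecutive days to find a hidden platform, and the dorsal hippocampus was taken shortly after the last trial. Homecage mice had no maze training. What else they met was not given in the sources used here, so learning cannot be told apart from swimming, handling, water or stress. RNA-Seq 1 was made from total RNA after ribosomal depletion with strand-specific libraries. The number in a label marks a replicate, and no label says that each came from its own animal, so p-values measure the spread between these libraries, which may in part be technical.

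Neurons that fire strongly switch on immediate early genes within minutes, since the transcription factors CREB and SRF already sit at their promoters and are activated by calcium and MAP kinase signals. The first wave holds transcription factors such as *Fos*, *Egr1* and *Nr4a1*, and also *Arc*, whose protein acts at the synapse. Their RNA is short-lived. Phosphatases of the DUSP family are induced by the same signals and shut the MAP kinases off again.

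The 3 homecage libraries held 43816201, 46356794 and 62431769 counts and the 3 MWM libraries 58740625 to 65709282, so that 3 counts, taken as the smallest detectable amount, were worth 0.0441 to 0.0740 CPM, the unit of level used throughout (counts relative to the depth of the library, after upper-quartile normalization). Markers of CA1, CA3 and dentate granule neurons reached at least 1 CPM in at least 1 library for all 9, 12 and 14 measured genes. All 11 neocortex markers and all 12 thalamus and habenula markers did so too. Detection alone therefore does not separate the labelled tissue from its neighbours. Homecage replicate 3 stood apart from the other homecage libraries. The chi-square per gene was 14.5 between homecage replicates 1 and 2, but 81.3 and 71.7 between these and replicate 3, against 19.3 to 25.2 between pairs of MWM libraries. Homecage replicate 3 was also richer in choroid plexus markers, with a summed level of 2095 CPM over 14 genes against 241 and 242, and the MWM libraries lay at 322, 813 and 1989. Its part in the results was not tested. Many of the leading genes and lists are therefore also given without this library.

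Of 21657 genes tested with edgeR, 3 had an adjusted p under 0.05 between MWM and homecage mice, which is 0.0139% of genes, 0.00923% higher and 0.00462% lower. *Fos* and *Egr2* rose and *Neat1* fell. *Fos*, a subunit of the transcription factor AP-1 (ENSMUSG00000021250.13, chr12:85473890-85477273, plus strand, GRCm38), was at 6.76, 8.73 and 7.65 CPM in homecage replicates 1, 2 and 3 and at 18.5, 18.1 and 14.5 CPM in MWM replicates 1, 2 and 3. Every MWM library lay well above every homecage library, and the log2 fold change was 1.14 ± 0.14 (standard error, n = 3 and 3, edgeR adjusted p = 0.0233). *Egr2*, a zinc-finger transcription factor (ENSMUSG00000037868.15, chr10:67535475-67542188, plus strand), was at 1.26, 2.33 and 1.72 CPM in homecage and at 11.8, 7.04 and 5.81 CPM in MWM libraries. It had the larger change of the pair, with a log2 fold change of 2.22 ± 0.28, or 4.64-fold (edgeR adjusted p = 0.0233), but also the wider spread among MWM libraries.

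*Neat1*, the long noncoding RNA around which nuclear paraspeckles form (ENSMUSG00000092274.2, chr19:5824708-5845478, minus strand), had the lowest p of all genes. It was at 61.0, 56.9 and 61.6 CPM in homecage and at 33.0, 31.1 and 28.9 CPM in MWM libraries. The groups were tight and far apart, and the log2 fold change was -0.95 ± 0.10 (edgeR adjusted p = 0.0141). Without homecage replicate 3 the log2 fold changes of *Fos*, *Egr2* and *Neat1* were 1.13, 2.19 and -0.93, with edgeR adjusted p = 0.0174, 0.0185 and 0.0127. These 3 genes were also called in every one of the 12 settings that kept all libraries. Without homecage replicate 1 their adjusted p was 0.0624, 0.0590 and 0.0530, without MWM replicate 1 it was 0.195, 0.106 and 0.106, and without MWM replicate 2 it was 0.269, 0.147 and 0.147. *Neat1* alone was also lost without MWM replicate 3, at 0.0796. *Crebbp*, which encodes CBP, was at 169, 208 and 144 CPM in homecage and at 158, 188 and 139 CPM in MWM libraries, with overlapping groups and a log2 fold change of -0.10 ± 0.16 (edgeR adjusted p = 0.852).

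**Figure D1:**
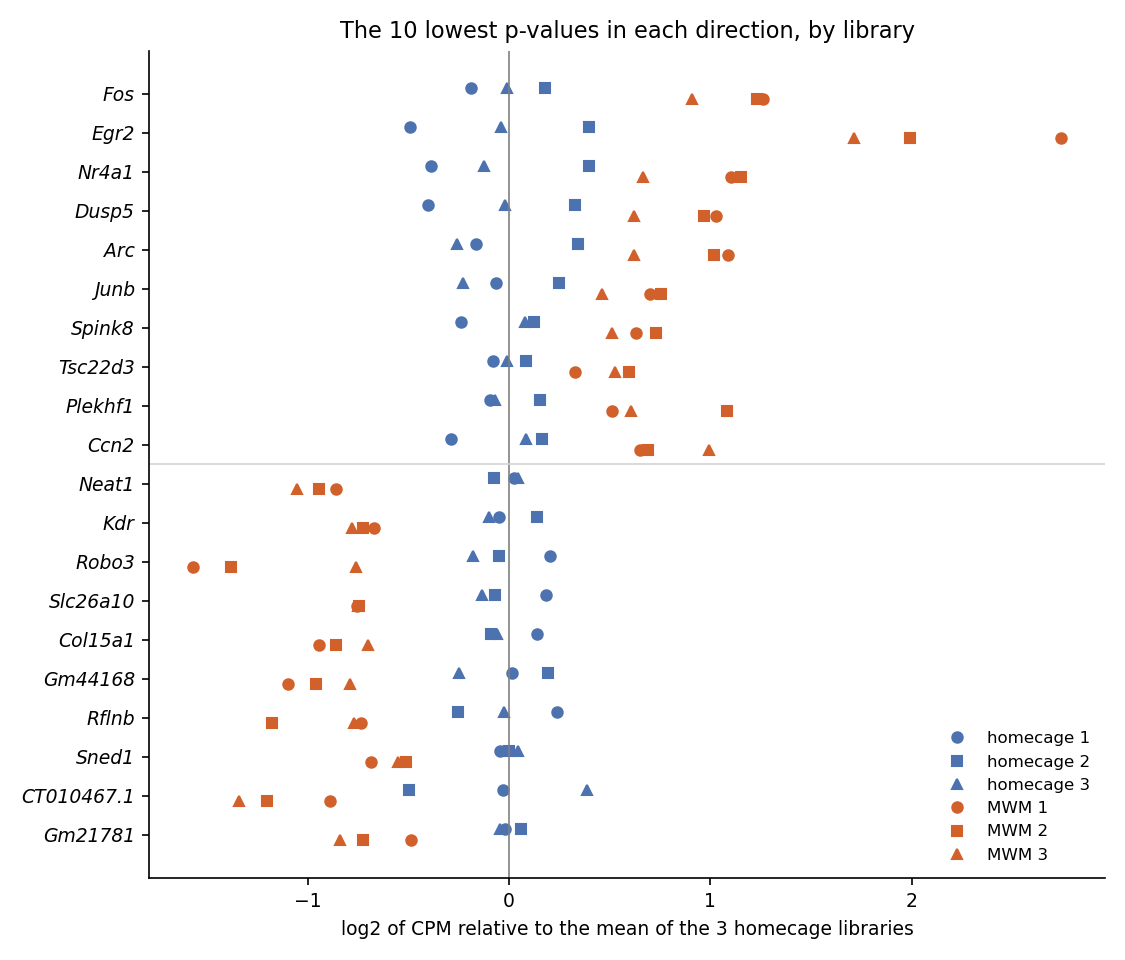
Level of the 10 higher and the 10 lower genes with the smallest p, as log2 of CPM relative to the mean of the 3 homecage libraries, 1 point per library and colours by group. All 3 MWM libraries lie on the same side of all 3 homecage libraries for each of the 20 genes, of which *Fos*, *Egr2* and *Neat1* passed the test.

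On the higher side, the 10 genes ranked first by p were led by activity-regulated genes, 8 of which missed the threshold. *Nr4a1*, an orphan nuclear receptor of the first wave, was at 36.3, 62.5 and 43.5 CPM in homecage and at 102, 106 and 75.3 CPM in MWM libraries (log2 fold change 0.99 ± 0.19, edgeR adjusted p = 0.217). *Dusp5*, a nuclear phosphatase of ERK, was at 13.8, 22.9 and 18.0 CPM in homecage and at 37.2, 35.7 and 28.0 CPM in MWM libraries (0.88 ± 0.17, adjusted p = 0.217). *Arc* was at 207, 294 and 194 CPM in homecage and at 493, 470 and 357 CPM in MWM libraries (0.92 ± 0.18, adjusted p = 0.227). In all 3 genes homecage replicate 2 was the highest of its group and MWM replicate 3 the lowest of its own, and the groups did not overlap. *Junb*, another AP-1 subunit, was at 77.6, 96.3 and 69.2 CPM against 132, 137 and 112 CPM (0.65 ± 0.14, adjusted p = 0.337). Without homecage replicate 3 the log2 fold changes of *Nr4a1*, *Dusp5*, *Arc* and *Junb* were 0.93, 0.87, 0.81 and 0.54.

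The other 4 genes were *Spink8*, a serine peptidase inhibitor of the Kazal family, *Tsc22d3*, which encodes the glucocorticoid-induced leucine zipper, *Plekhf1*, and *Ccn2*, a secreted matricellular protein. *Spink8* was at 6.32, 8.12 and 7.87 CPM in homecage and at 11.5, 12.3 and 10.6 CPM in MWM libraries (log2 fold change 0.62). *Plekhf1* was at 3.13, 3.72 and 3.19 CPM against 4.77, 7.10 and 5.09 CPM (0.76), and *Ccn2* at 1.65, 2.26 and 2.13 CPM against 3.16, 3.25 and 4.02 CPM (0.78). The log2 fold changes of *Spink8*, *Plekhf1* and *Ccn2* were 0.66, 0.72 and 0.82 without homecage replicate 3. Deviations from the group means correlated weakly between homecage and MWM libraries with the same number, at 0.147, 0.118 and 0.187. No label says that such libraries are pairs. A fit with the replicate number as a block leaves 2 residual degrees of freedom. In it all 8 passed the test, with edgeR adjusted p from 2.0e-09 for *Nr4a1* to 0.011 for *Tsc22d3*. That fit called 465 genes, 2.15% of those tested, of which 62 (0.286%) were higher and 403 (1.86%) lower. *Dusp5*, *Junb* and *Ccn2* each overlap a gene on the opposite strand, and whether counting used the strand was not given in the sources used here.

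The 250 bases before the start site are shown for 4 lead genes, because CREB and SRF sites at first-wave promoters are part of the background above. They were read from RefSeq on GRCm38.p6. Capitals mark the core of the CREB binding site, TGACG on either strand (CGTCA on the opposite strand), and the SRF binding site known as the CArG box, CC followed by 6 A or T and GG.
Fos, chr12:85473640-85473889, plus strand: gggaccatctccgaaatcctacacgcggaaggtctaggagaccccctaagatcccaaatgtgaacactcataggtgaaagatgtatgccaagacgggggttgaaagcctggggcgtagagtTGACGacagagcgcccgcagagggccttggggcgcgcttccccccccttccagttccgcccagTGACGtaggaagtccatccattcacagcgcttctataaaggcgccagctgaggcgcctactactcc
Egr2, chr10:67535249-67535498, plus strand: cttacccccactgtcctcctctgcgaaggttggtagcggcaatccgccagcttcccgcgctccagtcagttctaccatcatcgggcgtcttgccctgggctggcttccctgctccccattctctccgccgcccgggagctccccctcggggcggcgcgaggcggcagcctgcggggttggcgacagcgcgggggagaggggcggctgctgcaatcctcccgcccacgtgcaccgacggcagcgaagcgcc
Nr4a1, chr15:101266596-101266845, plus strand: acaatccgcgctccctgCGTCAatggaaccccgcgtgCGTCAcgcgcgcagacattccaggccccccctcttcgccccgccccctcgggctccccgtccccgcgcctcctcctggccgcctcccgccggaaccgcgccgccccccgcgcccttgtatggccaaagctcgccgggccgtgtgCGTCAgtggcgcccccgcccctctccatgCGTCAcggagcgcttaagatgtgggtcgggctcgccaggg
Dusp5, chr19:53528895-53529144, plus strand: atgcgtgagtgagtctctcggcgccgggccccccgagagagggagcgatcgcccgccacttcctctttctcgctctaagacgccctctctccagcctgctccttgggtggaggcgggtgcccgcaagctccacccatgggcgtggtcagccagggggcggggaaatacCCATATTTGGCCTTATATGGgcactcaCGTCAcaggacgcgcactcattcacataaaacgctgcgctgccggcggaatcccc

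*Fos* held the core 129 and 66 bases before its start and *Nr4a1* held it 233, 213, 69 and 40 bases before. *Dusp5* held a pair of adjoining CArG boxes 82 and 72 bases before its start and the core 55 bases before, while *Egr2* held neither motif in this window. Of the 10 lead genes on the higher side 7 were in the promoter table, and 4 of them (*Fos*, *Nr4a1*, *Dusp5* and *Junb*) held the core, against 0 of 6 on the lower side and 17.9% of all 27025 promoters. The CArG box was in 1 of the 7 and in 1.4% of all promoters. The complete 8-base CRE, TGACGTCA, which contains the core, was in 0 of the 7 and in 1.62% of all promoters. A match describes the letters in the window and is not evidence of binding.

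The lists below and their members were chosen with earlier results of these data known, so counts within them are not independent of the data. Among 33 inducible transcription factors, 2 passed the test (*Fos* and *Egr2*) and 0 fell. All 3 MWM libraries lay above all 3 homecage libraries for 9 of the 33 and below for 2, where 3.93% and 9.46% of all genes did so, and the median log2 fold change was 0.21 against -0.06 over all genes tested. *Egr1*, an activity marker widely used in the hippocampus, was at 53.0, 64.2 and 42.3 CPM in homecage and at 94.1, 94.5 and 66.9 CPM in MWM libraries. The groups did not overlap, but MWM replicate 3 was only just above homecage replicate 2 (log2 fold change 0.68 ± 0.17, edgeR adjusted p = 0.369, and 0.54 without homecage replicate 3). *Tiparp*, an ADP-ribosyltransferase, was at 5.11, 5.89 and 7.93 CPM against 9.92, 11.3 and 9.17 CPM (0.68 ± 0.17, and 0.88 without homecage replicate 3), and *Klf10* had a log2 fold change of 0.26.

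Other first-wave factors had small differences. *Npas4*, the neuron-specific factor that responds to calcium entry, was at 9.67, 11.3 and 4.35 CPM in homecage and at 5.72, 12 and 6.25 CPM in MWM libraries, so that the groups overlapped completely (log2 fold change -0.07 ± 0.33). *Fosb* was at 9.13, 9.14 and 5.85 CPM against 9.22, 10.6 and 9.21 CPM, with a difference carried by the low homecage replicate 3 (0.27, and 0.08 without that library). *Ier2* had a log2 fold change of 0.21, which was -0.0070 without homecage replicate 3. *Btg2*, an antiproliferative cofactor of the first wave, was at 20.5, 21.4 and 19.0 CPM in homecage and at 17.8, 18.4 and 17.9 CPM in MWM libraries (-0.17 ± 0.10). With the replicate block 7 of the 33 passed, all higher, against 0.286% of all genes. Without homecage replicate 3, 10 of the 33 lay above and 7 below both remaining homecage libraries, against 17.8% and 26.1% of all genes, and the median was 0.13.

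**Figure D2:**
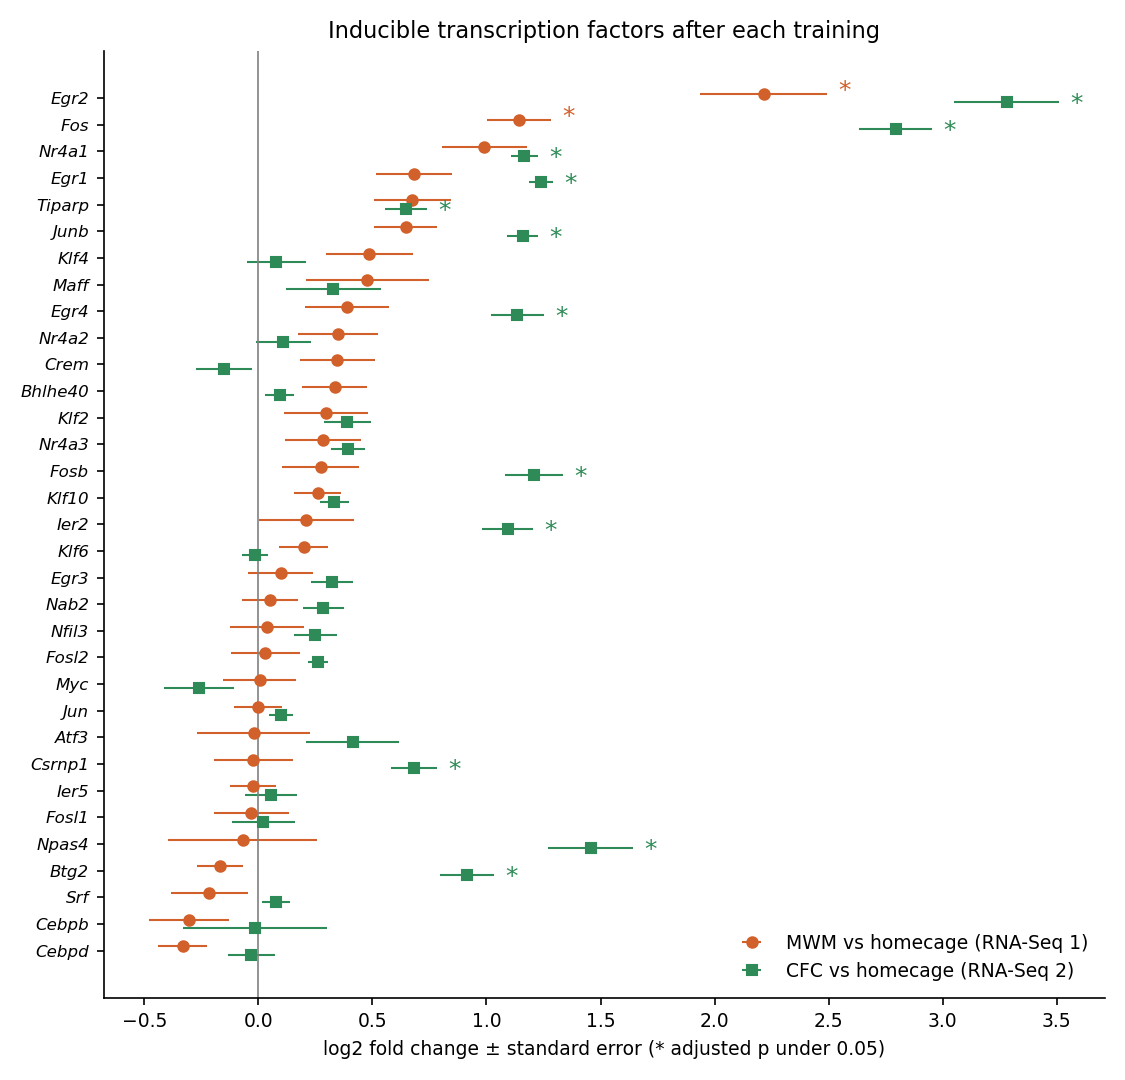
Log2 fold change with standard error of the inducible transcription factors after MWM (3 against 3 libraries of RNA-Seq 1) and after CFC (4 against 3 libraries of RNA-Seq 2), stars marking an adjusted p under 0.05. Of these, 2 passed after MWM and 12 after CFC, and *Btg2* and *Npas4* lie near 0 after MWM only.

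A list of activity effectors, named for products that act at the synapse or are secreted, was counted next. Not every member named here does so, and *Errfi1* is also counted among the MAP kinase regulators below. None of 32 such effectors passed the test. In all MWM libraries 7 lay above and 2 below, where 3.93% and 9.46% of all genes did so, and the median log2 fold change was 0.13. Since members were chosen with earlier results of these data known, these counts are not an independent test. *Arc* led the list. *Errfi1*, an inhibitor of the EGF receptor, was at 26.6, 25.0 and 26.7 CPM in homecage and at 36.1, 37.3 and 31.8 CPM in MWM libraries (0.42 ± 0.10), and *Arl5b*, a small GTPase, had a log2 fold change of 0.43. *Sv2b*, a synaptic vesicle glycoprotein, was at 300, 322 and 342 CPM against 417, 398 and 441 CPM (0.38). *Homer1*, a postsynaptic scaffold, and *Plk2*, a kinase that weakens synapses, had 0.31 and 0.32, and in each of these genes the groups did not overlap. *Bdnf*, the neurotrophin, had 0.15. *Pim1*, a kinase, lay the other way with -0.66. With the replicate block 5 of the 32 passed, all higher, against 0.286% of all genes. Without homecage replicate 3 the list had 12 above and 7 below, where 17.8% and 26.1% of all genes did so.

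Of 15 feedback regulators of the MAP kinase pathway, 0 passed, 4 lay above and 1 below, where 3.93% and 9.46% of all genes did so. The median was -0.03 (0.03 with TMM normalization). *Dusp6*, the cytoplasmic phosphatase of ERK, was at 64.3, 87.9 and 67.0 CPM in homecage and at 110, 103 and 92.6 CPM in MWM libraries (log2 fold change 0.48). *Dusp1* had 0.15, and -0.0021 without homecage replicate 3. Of 21 clock genes, 0 passed and 1, *Per2*, lay above in all MWM libraries, at 40.6, 47.2 and 32.6 CPM against 52.3, 53.9 and 50.05 CPM (0.38), with a median of 0.00 over the list. The clock repressor *Per1* had 0.36. Both values depended on homecage replicate 3, as *Per2* was at 0.24 and *Per1* at 0.20 without it, and on the GC correction, with which *Per2* was at 0.49 and *Per1* at 0.57. With the replicate block 0 clock genes and 3 of the 15 MAP kinase regulators passed, *Dusp5*, *Dusp6* and *Errfi1*, all higher, and with the block and the GC correction 2 clock genes did, *Per1* and *Per2*, and 1 MAP kinase regulator, *Dusp5*. The block alone called 0.286% of all genes higher, and the block with the GC correction 20 of 21657. The MAP kinase list had 4 above and 5 below without homecage replicate 3, and the clock list 3 above and 5 below. Of all genes, 17.8% lay above and 26.1% below in this way.

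Hormone and stress programmes were described by 3 further lists. Of 21 glucocorticoid-responsive genes, which carry the imprint of circulating corticosterone, 0 passed, 7 lay above and 0 below. Of all genes 3.93% and 9.46% did so. The median log2 fold change of the list was 0.18. *Tsc22d3* was at 43.0, 48.2 and 45.1 CPM in homecage and at 57.1, 68.5 and 65.3 CPM in MWM libraries, with no overlap (0.49, edgeR adjusted p = 0.340). *Fam107a*, an actin-associated stress gene, had 0.36 and *Mertk*, a phagocytic receptor of glia, 0.29. With the replicate block 3 of the 21 passed, all higher, against 0.286% of all genes. Without homecage replicate 3 the list had 7 above, 1 below and a median of 0.13. Of 20 heat-shock chaperones 2 lay above and 0 below (median 0.14), and of 19 chaperones of the endoplasmic reticulum 1 lay above and 0 below (median 0.13). *Hspa8* and *Hspa5*, the constitutive cytosolic and the luminal HSP70, each had 0.29 and *Dnajb1* had 0.32. Without homecage replicate 3 these counts were 12 above and 0 below of the 20, and 9 above and 0 below of the 19, where 17.8% of all genes lay above and 26.1% below the 2 remaining homecage libraries. Against fewer libraries such counts grow for any list.

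**Figure D3:**
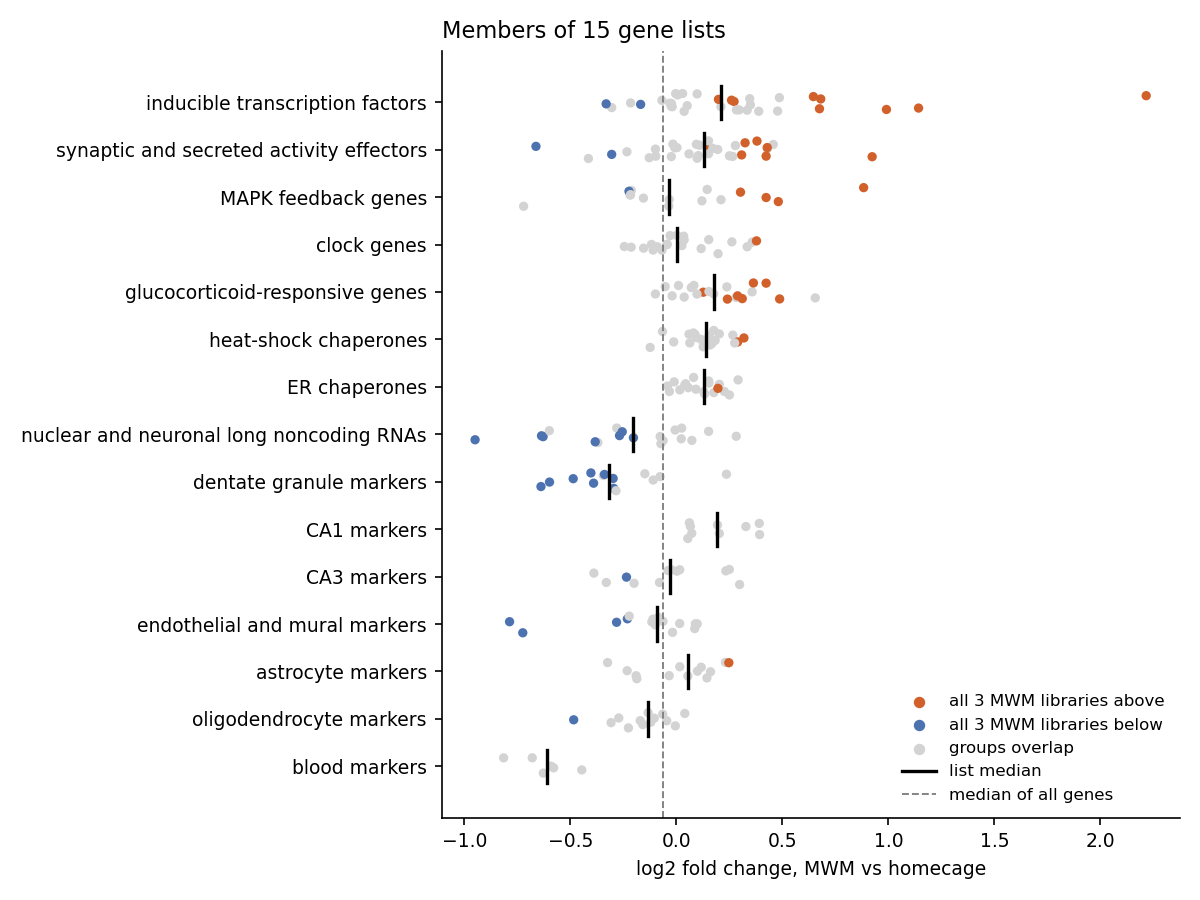
Log2 fold change of every tested member of 15 gene lists between MWM and homecage libraries, 1 point per gene, beside the median over all genes tested (dashed line at -0.06). Blood markers lie farthest to the left with a median of -0.61 over 6 genes, and the dentate granule and long noncoding RNA lists follow with -0.32 and -0.20. Inducible transcription factors lie to the right with 0.21.

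At an unadjusted p under 0.05 there were 1986 genes, 9.17% of those tested, of which 292 (1.35%) were higher and 1694 (7.82%) lower. The split depended on scaling. With TMM normalization, which moved the median of all genes from -0.06 to -0.00, 724 were higher and 1221 lower, and after correction for GC content 992 were higher and 1371 lower. The level of a gene also moved with its GC content. Genes were split into 10 bins by GC content, and the median deviation of the richest bin minus that of the poorest was 0.42, 0.28 and -0.39 (log2) in homecage replicates 1, 2 and 3, and 0.03, -0.18 and -0.18 in MWM replicates. Homecage replicates 1 and 2 were thus tilted toward GC-rich genes and homecage replicate 3 away from them. Leaving out homecage replicate 3 raised the count of calls from 3 to 1984 of 22054 genes, 497 (2.25%) higher and 1487 (6.74%) lower, and made the GC difference between the groups larger, from -0.20 to -0.47. With the GC correction and without that library 29 genes were called, 9 higher and 20 lower, and at an unadjusted p under 0.05 the split turned to 1969 higher and 1898 lower. With the replicate block and the GC correction together, 20 of all 21657 genes passed as higher and 27 as lower. Among them were 7 of the inducible transcription factors, 2 of the effectors and 2 of the glucocorticoid-responsive genes, all higher. Of the lists described next, 4 of the long noncoding RNAs and 1 of the endothelial and mural genes passed, all lower.

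**Figure D4:**
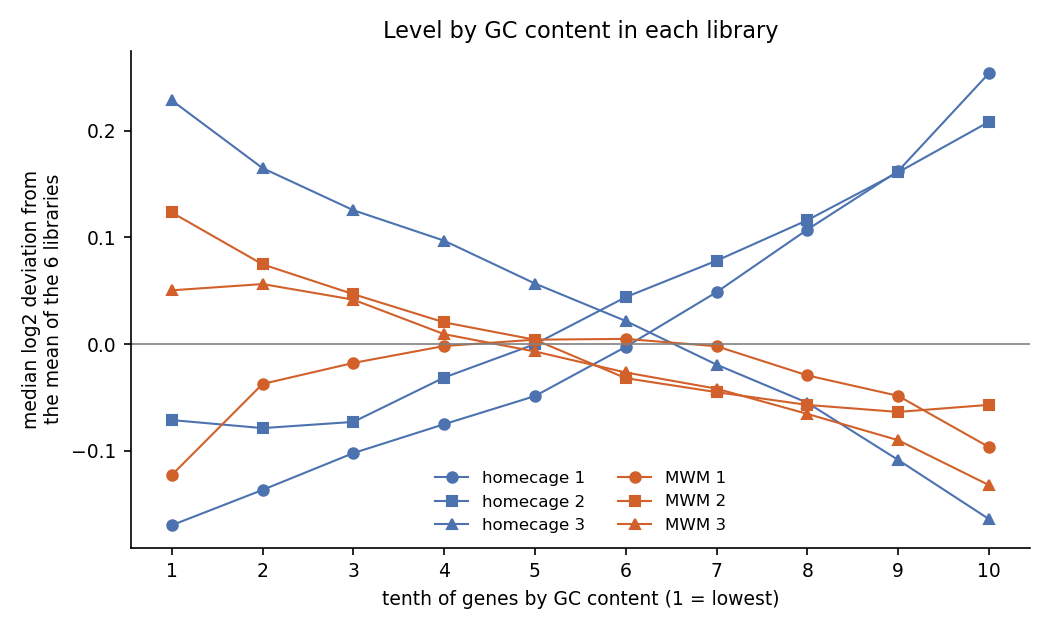
Median deviation of each library from the mean of the 6 libraries (log2) in 10 bins of genes ordered by GC content, 1 line per library. Homecage replicates 1 and 2 rise from the GC-poor to the GC-rich end, by 0.42 and 0.28, and homecage replicate 3 falls by 0.39.

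On the lower side, *Neat1* was followed by 9 genes that missed the threshold. *Kdr*, the VEGF receptor of endothelial cells, was at 19.9, 22.6 and 19.2 CPM in homecage and at 12.9, 12.4 and 12 CPM in MWM libraries (log2 fold change -0.72 ± 0.11, edgeR adjusted p = 0.12). *Robo3*, an axon guidance receptor, was at 32.1, 26.9 and 24.6 CPM against 9.39, 10.7 and 16.5 CPM (-1.19 ± 0.18, adjusted p = 0.12). In both genes the groups were well apart, with MWM replicate 3 the highest of its group for *Robo3*. *Col15a1*, a collagen of basement membranes, was at 9.15, 7.82 and 7.99 CPM against 4.33, 4.60 and 5.12 CPM (-0.83), and *Sned1*, a matrix glycoprotein, was at 21.9, 22.6 and 23.3 CPM against 14.0, 15.8 and 15.4 CPM (-0.58). *Slc26a10* had -0.75, *Rflnb*, which binds filamin, -0.88, and the unnamed genes *Gm44168* and *Gm21781* -0.94 and -0.68. *CT010467.1*, annotated as ribosomal RNA, was at 403, 291 and 537 CPM against 222, 178 and 162 CPM. A share of the counts summed over it, *Lars2*, *Gm42418*, *AY036118* and *Gm26917* was 1.21% to 1.80% in homecage and 0.867% to 1.36% in MWM libraries. That share was highest in homecage replicate 2, where *CT010467.1* was lowest of its group. The part of ribosomal depletion was not tested. All 9 genes that followed *Neat1* passed with the replicate block and none in the unblocked fit. The log2 fold changes of *Kdr*, *Robo3*, *Col15a1* and *Sned1* were -0.78, -1.28, -0.86 and -0.56 without homecage replicate 3. *Slc26a10*, *Col15a1* and *Sned1* overlap a gene on the opposite strand, as do other genes described here, among them *Tiparp*, *Errfi1*, *Arl5b*, *Sv2b*, *Bdnf*, *Pim1*, *Dusp1*, *Mertk*, *Miat*, *Prox1* and *Zic1*, so their counts are less certain.

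*Cldn5*, the tight junction protein of brain endothelium, was at 62.5, 65.1 and 48.8 CPM in homecage and at 42.0, 32.7 and 27.5 CPM in MWM libraries (log2 fold change -0.79, and -0.91 without homecage replicate 3). Of 16 endothelial and mural genes, 0 passed, 4 lay below and 0 above, where 9.46% and 3.93% of all genes did so. The median was -0.09, near the -0.06 over all genes tested. *Pdgfrb*, the pericyte receptor, had -0.28. With the block, which called 1.86% of all genes lower, 2 passed, *Kdr* and *Cldn5*. Without homecage replicate 3 the list had 5 below and 0 above, where 26.1% and 17.8% of all genes did so. The summed level of these markers was 335, 388 and 355 CPM in homecage and 308, 305 and 297 CPM in MWM libraries, a ratio of 0.845 (two-sided exact permutation p = 0.1, the smallest that 3 against 3 can give).

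Of 19 nuclear and neuronal long noncoding RNAs, 1 passed (*Neat1*), 7 lay below and 0 above, where 9.46% and 3.93% of all genes did so. The median was -0.20. *Gm3764*, whose locus spans the miR-9 precursor Mir9-1, was at 91.6, 95.1 and 80.2 CPM in homecage and at 61.2, 50.2 and 60.4 CPM in MWM libraries (-0.64). *Miat* was at 299, 327 and 239 CPM against 177, 192 and 190 CPM (-0.63), and *Mir124a-1hg*, the host gene of the neuronal miR-124, had -0.38. In these 3 genes the groups did not overlap. With the block 4 of the 19 passed, all lower, against 1.86% of all genes. Without homecage replicate 3 the list had 8 below and 2 above, where 26.1% and 17.8% of all genes did so. The blocked fit called 77 of 2560 lincRNAs, antisense and processed transcripts, 1 higher and 76 lower, which is 3.01%, and 320 of 15375 protein-coding genes (2.08%), 60 higher and 260 lower. The order of these shares turned in the fit without homecage replicate 3, at 3.89% of noncoding and 11.5% of protein-coding genes.

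Markers of dentate granule neurons, which receive the main input to the hippocampus, were read as a list. None of 14 passed the test, 8 lay below and 0 above, where 9.46% and 3.93% of all genes did so, and the median was -0.32 against -0.06 over all genes. *Plk5*, a polo-like kinase, was at 51.3, 47.7 and 38.1 CPM in homecage and at 29.7, 26.6 and 31.7 CPM in MWM libraries (log2 fold change -0.64). *C1ql2*, a synaptic organizer of mossy fibres, was at 170, 152 and 121 CPM against 100, 93.4 and 99.7 CPM (-0.60). *Prox1*, the transcription factor that fixes granule cell identity, was at 79.1, 81.7 and 76.3 CPM against 58.1, 68.4 and 52.8 CPM (-0.40), and *Lct* was at 120, 107 and 128 CPM against 94.3, 70.1 and 88.9 CPM (-0.49). These 4 passed with the replicate block, which called 1.86% of all genes lower. With the block and the GC correction only *Prox1* of the 14 passed, where 27 of all 21657 genes were lower. The GC correction alone moved *Plk5* to -0.43, *C1ql2* to -0.39, *Lct* to -0.42 and *Prox1* to -0.45. It moved the list median to -0.29 and the median of all genes to -0.0038. The summed level of the 14 markers was 817, 786 and 814 CPM in homecage and 636, 623 and 611 CPM in MWM libraries, a ratio of 0.774 (two-sided exact permutation p = 0.1). Without homecage replicate 3 the list had 8 below and 1 above, where 26.1% and 17.8% of all genes did so, and a median of -0.24. In bulk tissue, fewer cells of a type and less RNA per cell cannot be told apart.

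CA1 markers had 0 of 9 below and 0 above, but all 9 had a positive log2 fold change. Their median was 0.19, which was 0.31 with the GC correction and 0.12 without homecage replicate 3. Summed levels were 1244, 1760 and 1092 CPM in homecage and 1639, 1547 and 1406 CPM in MWM libraries. CA3 markers had 0 above and 1 below of 12 and a ratio of summed levels of 1.00. Of all genes 3.93% lay above and 9.46% below. Markers of the thalamus and habenula, tissue that borders the dissected hippocampus, had summed levels of 322, 176 and 268 CPM against 209, 187 and 178 CPM. *Zic1*, one of them, was at 81.1, 10.8 and 45.7 CPM in homecage and at 21.9, 7.88 and 9.76 CPM in MWM libraries, and *Prkcd* at 65.4, 14.9 and 55.4 CPM against 31.1, 24.7 and 25.0 CPM. Homecage replicates 1 and 3 were thus high for both and homecage replicate 2 was not. *Zic1* had a log2 fold change of -1.80 ± 0.54 and *Prkcd* one of -0.75, and neither passed with all libraries and no block. Both passed without homecage replicate 2 (edgeR adjusted p = 0.0303 and 0.0137), the low library of its group, and with the replicate block. The block called 3 of the 12 markers lower, against 1.86% of all genes. With the block and the GC correction 1 of the 12 was lower, against 27 of all 21657 genes. The part of such tissue in the lower genes was not tested.

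**Figure D5:**
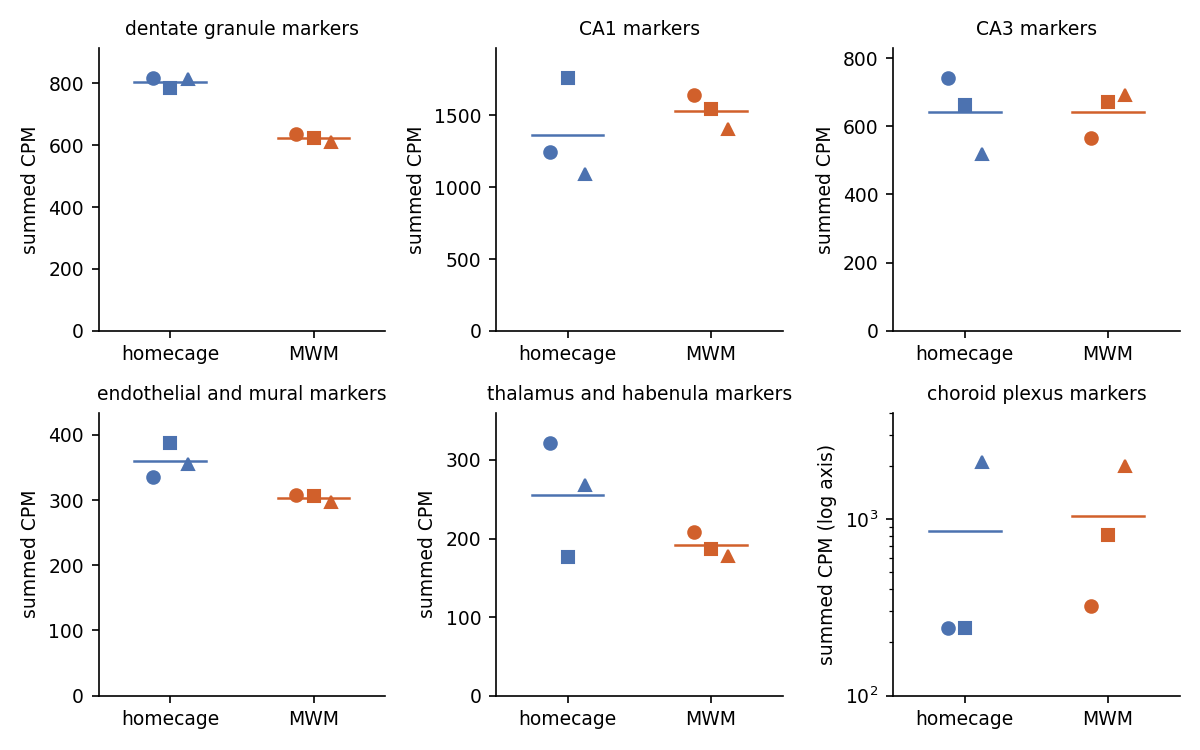
Summed CPM of marker lists in the 3 homecage and 3 MWM libraries, 1 point per library and a line at each group mean, with a log axis for choroid plexus only. Dentate granule markers lie between 786 and 817 CPM in homecage and between 611 and 636 CPM in MWM libraries, and choroid plexus markers range from 241 to 2095 CPM within the homecage group alone.

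Choroid plexus markers were spread over both groups, with a ratio of MWM to homecage mean of 1.21, which was 4.32 without homecage replicate 3. None of the 14 had groups that did not overlap. With the replicate block 5 of the 14 passed, all higher, against 0.286% of all genes. Without homecage replicate 3, 3 of the 14 passed, all higher, against 2.25% of all genes. The medians in these fits were 0.50 and 1.5, against 0.23 with all libraries and no block. Blood markers had summed levels of 227, 377 and 179 CPM in homecage and 139, 127 and 242 CPM in MWM libraries, and *Hbb-bt*, a beta globin, had a log2 fold change of -0.81, and -1.04 without homecage replicate 3. The 6 blood markers tested had a median of -0.61, and -0.87 without homecage replicate 3. The replicate block called 4 of them lower, *Hbb-bt* among them, against 1.86% of all genes. No choroid plexus or blood marker passed with the block and the GC correction. Ependymal and meningeal fibroblast markers had medians of -0.35 over 8 genes and -0.29 over 10, which were -0.05 and -0.19 without homecage replicate 3, and 0 passed in either list without the block, with which 2 and 1 were lower. Astrocyte markers had 1 above and 0 below of 13 and a median of 0.05, oligodendrocyte markers 0 above and 1 below of 13 and a median of -0.13, and microglia markers 0 and 0 of 13 with a median of 0.04. The gap junction gene *Gjb1* of oligodendrocytes had -0.48. *Vip*, a neuropeptide of interneurons, had 0.62, and all MWM libraries lay above all homecage libraries. The lists did not move with it. Of 13 inhibitory neuron markers 2 lay above and 1 below, with a median of -0.03. Of 20 neuropeptide genes 1 lay above and 3 below, with a median of 0.01. Beside these and the glial lists, 3.93% of all genes lay above and 9.46% below.

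Contextual fear conditioning (CFC), a single-session task in which mice learn that a chamber predicts a foot shock, was measured in RNA-Seq 2 in 4 WT CFC and 3 WT homecage libraries made from polyA-selected RNA. No library is shared with the MWM comparison. The task, the kind of library and the run all differed from RNA-Seq 1, so they cannot be told apart. Of 18115 genes 21 were called after CFC (0.116%), all higher. These 21 were chosen by their CFC values, so only their MWM values are independent of the choice. All 21 were measured after MWM, and 18 had a positive log2 fold change, with a median of 0.36. All MWM libraries lay above all homecage libraries for 10 of them, against 3.93% of all genes. The test was passed by 2, against 0.0139% of all genes. The median of 0.36 became 0.18 without homecage replicate 3 and 0.42 with TMM normalization. The median after CFC was 1.09.

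The difference between the 2 responses was tested as an interaction over the 13 libraries. It passed for 3 of 22038 genes (0.0136%), *Fos*, *Btg2* and *Sik1*, all with the smaller response after MWM and all with an edgeR adjusted p = 0.0318. *Fos* was at 3.46, 5.02 and 5.17 CPM in RNA-Seq 2 homecage and at 33.1, 24.9, 33.1 and 33.7 CPM in CFC libraries, a log2 fold change of 2.79, which exceeded that after MWM by 1.66 ± 0.22. *Btg2* was at 17.3, 18.9 and 15.4 CPM against 34.5, 27.7, 30.2 and 38.9 CPM, while it lay slightly below homecage after MWM, a difference of 1.09 ± 0.15. *Sik1*, a kinase that restrains CREB coactivators, was at 8.83, 9.996 and 8.78 CPM against 17.8, 19.7, 19.0 and 19.7 CPM, and had a log2 fold change of 0.10 after MWM, a difference of 0.95 ± 0.14. With TMM normalization the adjusted p was 0.0385 for *Fos*, 0.0575 for *Btg2* and 0.0629 for *Sik1*.

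Several other genes had a large value after CFC and a small one after MWM without a difference that passed. *Npas4* had a log2 fold change of 1.46 after CFC and -0.07 after MWM, *Fosb* 1.21 and 0.27, *Ier2* 1.09 and 0.21, and *Dusp1* 1.07 and 0.15. *Egr2* had 3.28 after CFC and 2.22 after MWM, a difference of 1.08 that did not pass (edgeR adjusted p = 0.611), and *Arc* had 1.62 and 0.92. *Nr4a1*, *Dusp6* and *Tiparp* had nearly equal values in the comparisons, 1.17 and 0.99, 0.50 and 0.48, and 0.65 and 0.68, and *Dusp5* had 0.53 after CFC and 0.88 after MWM. *Neat1* had 0.12 after CFC and -0.95 after MWM, and this difference of -1.08 ± 0.20 did not pass (adjusted p = 0.263). Dentate granule markers had a median of 0.05 after CFC and glucocorticoid-responsive genes one of -0.03.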

How the data were processed

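RNA was measured in dorsal hippocampus of WT MWM and WT homecage mice (3 libraries each). The authors aligned reads with STAR and counted them per gene with featureCounts 1.4.4; SAMtools 1.6 and the builds mm10 and GRCm38 are also named in the submitters' processing notes. They deposited raw counts, with no scaling. The annotation release and the strand setting of counting are not given in the sources used here. Of 51826 gene IDs, 51633 matched GENCODE M21, which gave positions and GC content. 0 columns lacked a sample.

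Genes passing filterByExpr were scaled by the upper quartile and tested with the quasi-likelihood test of edgeR 4.0.16 in R 4.3.3, using group as the only term and Benjamini-Hochberg adjustment over all genes tested. Summed CPM were compared by two-sided exact permutation tests over libraries. Alternatives were TMM, DESeq2 1.42.0, other filters, the replicate block, GC correction in 10 bins, RUVr (own implementation), all 9 RNA-Seq 1 libraries, and each library left out. The newer quasi-likelihood method, TMM with the block, GC correction without homecage replicate 3, and list counts and marker sums without single libraries were added after seeing the data. Fits were tested on simulated data.

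Only the fits with the replicate block took same-numbered libraries of the groups as pairs. Their deviations from the group means correlated at 0.147, 0.118 and 0.187 in RNA-Seq 1 and 0.440, 0.515 and 0.227 in RNA-Seq 2, values from these same data. The labels give only the number.

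Named genes are all genes called, the 10 higher and 10 lower genes of smallest p, *Crebbp*, members of the transcription factor, effector, MAP kinase and clock lists, and at most 4 with the lowest p, or the most abundant, of each other list. Members and lists were chosen with earlier results of these data known. Promoters were matched to RefSeq by symbol.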

Additional observations from a re-analysis of the deposited data

Results flagged for a closer look

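The log2 fold change after MWM minus that after CFC passed the test of the difference itself for *Fos* (-1.66), *Btg2* (-1.09) and *Sik1* (-0.95), with edgeR adjusted p = 0.0318 for each. Task, library type and run cannot be told apart in it.

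Among the 4 CFC libraries, CFC replicate 2 had 24.9 CPM of *Fos* while the others had 33.1 to 33.7 CPM, a gap that was large for the range of the group. This was 1 of 17 genes tested in this way, and chance flags about 1 in 20.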

How the results depend on the processing

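Against 3 genes called between MWM and homecage mice, the count was 49 with DESeq2 (21 higher), 170 without a filter on low counts, 465 with the replicate block, 6 with the GC correction, 47 with the block and the GC correction, 26 with 1 RUVr factor, 325 with TMM normalization and the block, and 29 with the GC correction and without homecage replicate 3. It was 3 with TMM normalization, a stricter filter, all 9 libraries of RNA-Seq 1 or the newer quasi-likelihood method. Leaving out 1 library gave 0 to 1984 calls, 0 without homecage replicate 1, MWM replicate 1 or MWM replicate 2 (1524, 1548 and 1793 genes at an unadjusted p under 0.05), 21 without homecage replicate 2 and 1984 without homecage replicate 3. Of the 465 blocked calls, 284 were among these 1984, which is 61.1% of the first and 14.3% of the second, and 48 of the 49 DESeq2 calls were among the 465. The cause was not tested.

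After CFC the count of 21 became 42 with DESeq2, 34 without a filter, 16 with the replicate block and 13 to 18 when 1 library was left out. The interaction count of 3 became 1 with TMM normalization, 29 with DESeq2, 7 without a filter, 6 with the replicate block, and 0 to 892 when 1 library was left out. It was 892 without homecage replicate 3 of RNA-Seq 1, and 0 without MWM replicate 1 or 2, RNA-Seq 2 homecage replicate 1 or 3, or CFC replicate 1, 3 or 4. The ratio of choroid plexus markers ranged from 0.66 (without MWM replicate 3) to 4.32 (without homecage replicate 3).

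Signs turned for 6 genes, none of them called in the comparison concerned by the fit with all libraries. *Npas4* was at 0.11 with the GC correction, 0.096 with the block and the GC correction, 0.030 with 1 RUVr factor and 0.0093 with TMM normalization and the block. When 1 library was left out, *Npas4* ranged from -0.49 to 0.20, *Crebbp* from -0.23 to 0.047 (without homecage replicate 2), *Dusp1* from -0.0021 to 0.30 and *Ier2* from -0.0070 to 0.42 (both lowest without homecage replicate 3), *Neat1* after CFC from -0.029 (without CFC replicate 2) to 0.25, and the interaction of *Nr4a1* from -0.34 to 0.065 (without RNA-Seq 1 homecage replicate 2).

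With 4 residual degrees of freedom, 2 in the blocked fit, small changes could not be resolved. The shallowest MWM or homecage library allowed levels from 0.0740 CPM upward to be seen. Counting error is the only error such a limit covers.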

Other observations

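Cold-inducible transcripts were read because the maze involves water. *Cirbp*, the cold-inducible RNA-binding protein, had a log2 fold change of -0.20 and *Srsf5*, a splicing factor, -0.25. The other of the 3 listed genes had a positive value. None of the 3 had groups that did not overlap or an unadjusted p under 0.05. Summed levels over the 3 were 238, 226 and 231 CPM in homecage and 204, 202 and 209 CPM in MWM libraries (two-sided exact permutation p = 0.1, the smallest that 3 against 3 can give). Mitochondrially encoded genes took 1.36%, 1.38% and 1.99% of the counts in homecage and 1.74% to 2.08% in MWM libraries.

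The 3 CBP KIX/KIX MWM libraries of RNA-Seq 1 stood in no comparison here. They had 11.5, 10.6 and 13.1 CPM of *Fos*, 4.33, 3.93 and 6.25 CPM of *Egr2* and 28.6, 35.4 and 27.5 CPM of *Neat1*.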
